A study of Mus musculus with 10 samples.

Results

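LIF, ERK, BMP and Nodal signals each switch on genes that act back on the pathway, and 10 of these feedback and response genes are described here: Socs3, Dusp6, Spry2, Spry4, Id1, Id2, Id3, Smad7, Lefty1 and Tgif1. They were chosen by name, as the listed transcripts whose GENCODE M21 symbol is 1 of the 10. Each symbol matched 1 transcript, so 10 of the 15269 listed transcripts are covered, and all 10 lie in the block of 14534 coding transcripts. The values are ribosome footprints on the open reading frame (ORF) and the 5' UTR in 8 libraries, and transcriptome reads on the same regions in 2 more.

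The cells were CGR8, a feeder-free mouse embryonic stem cell line of strain 129 kept in medium with LIF. Control cells, given the drug solvent, were compared with cells treated for 10 min with 1 µM DMDA-PatA, for 10 min with 2 µg/ml harringtonine or for 20 min with 0.2 mg/ml puromycin, with 2 footprint libraries in each of the 4 groups. DMDA-PatA is an analogue of pateamine A, a compound that acts on the RNA helicase eIF4A and so on initiation. Harringtonine stops ribosomes that have just started and lets those further along run off, and puromycin is built into the nascent chain and ends it early. Another 2 libraries hold total RNA from the lysate of untreated cells, cleared of nuclei and most mitochondria. This RNA was depleted of rRNA and cut into fragments. No transcriptome library was made from treated cells, so a change in footprints per mRNA and a change in the amount of mRNA cannot be told apart under the drugs. All groups share the cell line, so no group differs in genotype. The study calls the 2 libraries of a group biological replicates without saying whether they were separate cultures, and the p-values measure the spread between these libraries.

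LIF holds mouse embryonic stem cells in self-renewal through the kinase JAK and the transcription factor STAT3, and Socs3 is a STAT3 target that binds the receptor complex and blocks JAK. FGF4 made by the same cells activates ERK, which pushes them towards differentiation, and Dusp6 and the Sprouty proteins Spry2 and Spry4 dampen it. BMP4 acts through SMAD1 and SMAD5 to induce the Id proteins, which bind and block basic helix-loop-helix factors, and Smad7 inhibits the receptors of both BMP and Nodal. Nodal acts through SMAD2 and SMAD3, Lefty1 is a secreted Nodal antagonist, and Tgif1 is a corepressor of SMAD2 and SMAD3. Feedback genes of this kind tend to have short-lived mRNAs and proteins.

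The upstream start codons are shown because the 5' UTR footprints described further on lie before the ORF start, where ribosomes can meet an AUG codon of another reading frame. Sequences are GENCODE M21 transcripts on GRCm38, 5' to 3', and the capitals mark ATG. Those of Socs3, Dusp6, Spry2 and Id3 are each the only ATG of the 5' UTR. The Tgif1 line holds the last of 13 upstream ATGs followed by the start of the ORF. Id1, Id2 and Lefty1 had no upstream ATG and are shown at the ORF start, as is Id3 for comparison.
Socs3 upstream: tagctccccgggATGcggtagcggccgctg
Dusp6 upstream: cgtgctcggcctATGcctgcctcgaggggc
Spry2 upstream: cacggagttcagATGtgttctaagcctgct
Id3 upstream: tcttaaaagttaATGgttttaagtgatttt
Tgif1 upstream and ORF start: actctgaggATGaagacagcATGgacagtc
Id1 ORF start: gttctcaggatcATGaaggtcgccagtggc
Id2 ORF start: cctacgagcagcATGaaagccttcagtccg
Id3 ORF start: ctactctccaacATGaaggcgctgagcccg
Lefty1 ORF start: ccggacagcaccATGccattcctgtggctc

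The upstream frame of Socs3 has 3 codons with its stop and that of Dusp6 has 9, and both end before the ORF. The Id3 frame of 54 codons also ends before the ORF. The frames of Spry2, with 34 codons, and Tgif1, with 82 codons, run past the ORF start in another frame than the protein. In Smad7 the 5' UTR held 6 ATGs. For Spry4 the M21 sequence has no ATG at the listed ORF start, so the scan could not be made. An upstream ATG (these 3 letters, on the transcript strand, any frame) was present in 52.1% of 11161 coding transcripts with a 5' UTR and an ATG at the ORF start. The median length of these 5' UTRs was 174 nt.

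The Socs3 site spans an exon junction within chr11:117968292-117968877 on the minus strand, and the Spry2 site within chr14:105893776-105896591 on the minus strand. The Dusp6 site is at chr10:99263622-99263651 and the Id3 upstream site at chr4:136143526-136143555, both on the plus strand in a 5' UTR exon. The Tgif1 window is at chr17:70846345-70846374 on the minus strand, across the end of the 5' UTR and the start of the ORF. The ORF starts are at chr2:152736329-152736358 for Id1, chr12:25095993-25096022 for Id2 on the minus strand, chr4:136143867-136143896 for Id3 and chr1:180935098-180935127 for Lefty1. The listed 5' UTRs are 400 nt long in Socs3, 461 in Dusp6, 283 in Spry2, 146 in Spry4, 90 in Id1, 82 in Id2, 382 in Id3, 1427 in Smad7, 88 in Lefty1 and 816 in Tgif1. The ORFs run from 357 nt in Id3 to 1278 nt in Smad7. The authors' 5' UTR counts leave out the last 10 nt before the ORF, so footprints on the ORF start codon are not among them. The Tgif1 upstream ATG shown is not wholly inside the counted part either. Its frame, transcript positions 806 to 1051, runs mostly within the listed ORF, where footprints are counted with the ORF. Annotation of the Tgif1 transcript is incomplete at the 3' end, with a listed ORF of 472 nt and no reads listed beyond it, and GENCODE tags it with a retained first intron. Its values belong to that listing and not to the full protein.

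Reads on coding transcripts numbered 9559519 and 11161453 in the control libraries and 1027314 to 2802597 in the drug libraries, against 25508180 and 59271162 in the transcriptome libraries. Footprint values are reads scaled to equal spike-in RNA by the authors, so that 1 read is worth between 0.631 and 2.07. Median coding values of replicate 2 over replicate 1 were 0.899 in the control, 1.03 with puromycin, 0.577 with harringtonine and 1.51 with DMDA-PatA. All 10 stem cell markers were listed, with summed levels per kb of 38764 and 34892 in the transcriptome libraries. They ran from 191 in Dppa3, below the median of 400 over all coding sequences, to 8045 in Pou5f1 and 10409 in Zfp42. The 6 fibroblast markers summed to 44189 and 45514, with Col1a1 at 30848 per kb, Col1a2 at 6870, Postn at 5895, Pdgfrb at 961, Thy1 at 250.3 and Lum at 27.0. The 4 endoderm markers summed to 132 and 108 per kb. Of the mesoderm genes T stood at 1902 per kb and Mesp1 at 32.7, and of the neural genes Pax6 at 110.0 and Sox1 at 3.35. The trophoblast gene Cdx2 stood at 367, and Elf5 was not listed. The part of such cells in the results was not tested.

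Socs3 ORF footprints were 439 and 365 in the control libraries, 182 and 296 with puromycin, 62.9 and 38.5 with harringtonine, and 10.7 and 15.4 with DMDA-PatA. Every drug library lay below both controls, and the puromycin libraries lay above all others with a drug. The loss was a log2 change of -4.94 with DMDA-PatA (SE 0.52, edgeR adjusted p = 8.16e-21), which is 30.8 fold inhibition, and -2.996 with harringtonine (SE 0.46, edgeR adjusted p = 1.91e-10). With puromycin the log2 change of -0.74 did not pass the test (SE 0.42, edgeR adjusted p = 0.086). Leaving out harringtonine replicate 1 or 2 from the shared fit brought the adjusted p to 0.0139 or 0.0137 in edgeR at a log2 change of -0.73.

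Dusp6, the phosphatase that removes the activating phosphates of ERK, had ORF footprints of 1276 and 1329 in the control, 544 and 316 with puromycin, 235 and 136 with harringtonine, and 29.0 and 42.2 with DMDA-PatA. Spry2 had 579 and 486 in the control, 225 and 293 with puromycin, 113 and 68.6 with harringtonine, and 13.3 and 22.7 with DMDA-PatA. Spry4 had 668 and 638 in the control, 263 and 196 with puromycin, 102 and 73.5 with harringtonine, and 13.3 and 17.9 with DMDA-PatA. In these 3 ERK inhibitors the groups did not overlap and stood in the same order, control highest, then puromycin, harringtonine and DMDA-PatA. The median log2 changes over all transcripts tested have that order too, at -2.48, -2.97 and -4.32. How many of all transcripts have groups apart in this way was not counted.

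The log2 changes of the ERK inhibitors with DMDA-PatA were -5.19 for Dusp6, -4.89 for Spry2 and -5.39 for Spry4, the lowest value of the 10 genes (SE 0.51 to 0.53, edgeR adjusted p = 8.05e-21 or less). With harringtonine they were -2.81, -2.56 and -2.90, and with puromycin -1.60, -1.03 and -1.51. All 9 of these changes passed the test. The Dusp6 call with puromycin was lost without puromycin replicate 2 (log2 change -1.26), and that of Spry2 was lost on leaving out any control or puromycin library (log2 changes from -1.24 to -0.86).

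The Id genes lost less. Id1 ORF footprints were 1781 and 1672 in the control, 825 and 833 with puromycin, 978 and 888 with harringtonine, and 278 and 472 with DMDA-PatA. Id2 footprints were 483 and 567 in the control, 405 and 412 with puromycin, 357 and 247 with harringtonine, and 54.9 and 89.3 with DMDA-PatA. Id3 footprints were 1184 and 1089 in the control, 1183 and 1424 with puromycin, 1108 and 676 with harringtonine, and 186 and 450.5 with DMDA-PatA. For Id1 and Id2 all drug libraries were below the controls. For Id3 the harringtonine and puromycin libraries overlapped with the controls.

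With DMDA-PatA the log2 changes were -2.20 for Id1, -2.87 for Id2 and -1.84 for Id3 (SE 0.45 to 0.46), and all 3 passed the test (edgeR adjusted p = 5.45e-05 for Id3). Of all 12499 transcripts tested, 245 had a higher log2 change than Id3 with DMDA-PatA. With harringtonine Id1 passed narrowly at -0.89 (SE 0.44, edgeR adjusted p = 0.048), while Id2 at -0.80 (edgeR adjusted p = 0.0665) and Id3 at -0.35 (edgeR adjusted p = 0.436) did not. The Id1 call was lost without the filter on low counts (edgeR adjusted p = 0.0549) and on leaving out any control or puromycin library (log2 changes from -0.93 to -0.84). The values with puromycin were -1.06 for Id1, which passed, and -0.36 for Id2 and 0.20 for Id3, which did not (edgeR adjusted p = 0.409 and 0.661). The Id1 call with puromycin was lost on leaving out any control or puromycin library (log2 changes from -1.10 to -1.01).

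Smad7 had the fewest ORF footprints of the 10 genes in untreated cells, 211 and 184 in the control libraries, 105 and 68.4 with puromycin, 34.5 and 24.5 with harringtonine, and 14.5 and 19.5 with DMDA-PatA. No drug library reached the controls. The log2 changes were -1.20 with puromycin, -2.75 with harringtonine and -3.54 with DMDA-PatA (SE 0.44 to 0.49), and all passed the test, with the puromycin call lost without control replicate 1 (-1.09) or puromycin replicate 2 (-0.90). Because each DMDA-PatA library held only 23 or 24 Smad7 ORF reads, counting error limits these values. The same holds for the DMDA-PatA values of Socs3 (17 and 19 ORF reads), Spry2 (21 and 28) and Spry4 (21 and 22).

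Lefty1 ORF footprints were 1811 and 2075 in the control, 639 and 424 with puromycin, 1364 and 1215 with harringtonine, and 319 and 500.0 with DMDA-PatA. Both harringtonine libraries of Lefty1 lay above both puromycin libraries. Those of Id1 did so too, but its log2 difference of 0.17 was not called (edgeR adjusted p = 0.853). Of all transcripts tested, 1.20% were called higher with harringtonine than with puromycin. The log2 changes were -2.25 with DMDA-PatA and -1.87 with puromycin, which passed, and -0.59 with harringtonine, which did not (SE 0.44, edgeR adjusted p = 0.187). Tgif1 had 1278 and 1209 in the control, 467 and 439 with puromycin, 316 and 164 with harringtonine, and 51.1 and 58.4 with DMDA-PatA. Its log2 changes of -1.46 with puromycin, -2.38 with harringtonine and -4.50 with DMDA-PatA all passed the test (SE 0.44 to 0.51).

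**Figure D1:**
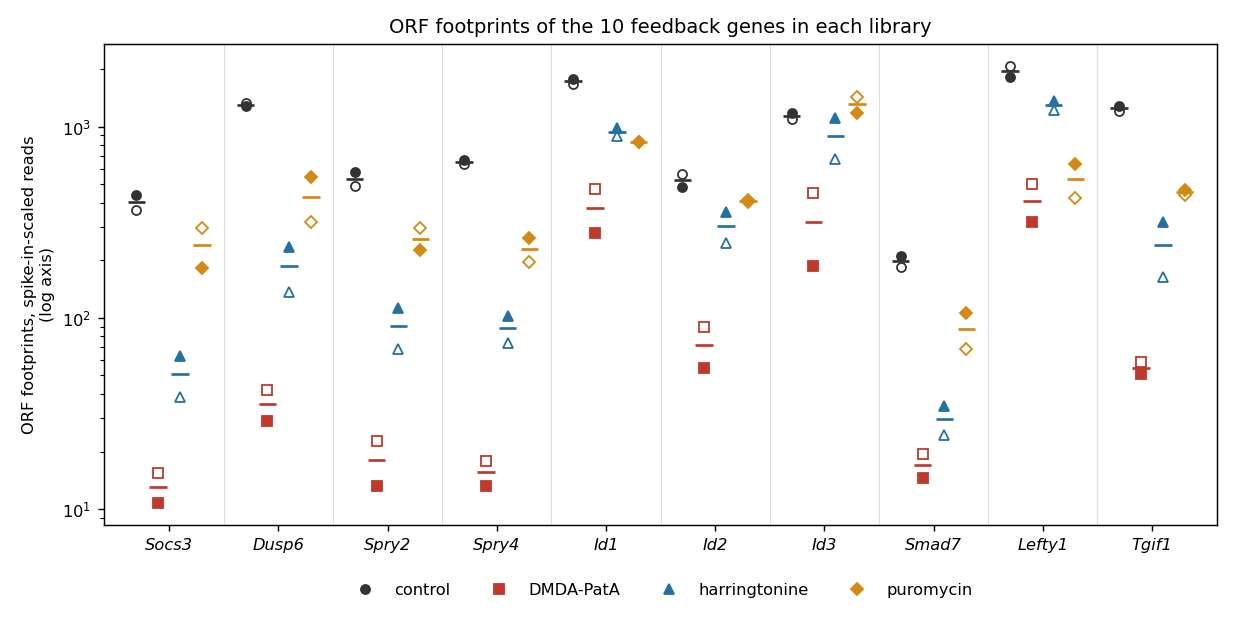
ORF footprints of each gene in each of the 8 footprint libraries, in spike-in-scaled reads on a log axis, with replicate 1 filled, replicate 2 open and the mean as a bar. The DMDA-PatA mean is the lowest for every gene, Socs3 falls from 439 and 365 to 10.7 and 15.4, and the Id3 libraries with puromycin, at 1183 and 1424, overlap with the controls.

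Of the 10 genes, 7 fell with puromycin, 7 with harringtonine and 10 with DMDA-PatA, and none rose in edgeR, DESeq2 or limma with spike-in scaling, also at an unadjusted p under 0.05 in edgeR. Of all transcripts tested 90.1% fell with puromycin, 92.9% with harringtonine and 99.3% with DMDA-PatA, while 0.352%, 0.512% and 0.0560% rose, so a fall as such does not set these genes apart. The median log2 change of the 10 genes was -1.13 with puromycin, -2.47 with harringtonine and -4.02 with DMDA-PatA, beside medians of -2.48, -2.97 and -4.32 over all transcripts tested in the same order. ORF length moved with these values. Over coding sequences of up to 600 nt, which include Id1, Id2, Id3 and the listed part of Tgif1, the median log2 change was -3.73, -1.66 and -1.29 for DMDA-PatA, harringtonine and puromycin, and over those above 1200 nt, which include Smad7, it was -4.53, -3.36 and -2.94. For the ORFs in between, which include the other 5 genes, it was -4.17, -2.63 and -2.14. Its part in the results was not tested.

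The drugs were then set against each other, although dose, agent and time differ between them. Footprints were fewer with DMDA-PatA than with harringtonine on 9 of the 10 genes (52.8% of all transcripts tested) and fewer than with puromycin on 9 (67.4% of all). Smad7 did not pass in the former comparison (log2 difference -0.79, edgeR adjusted p = 0.166), nor Lefty1 in the latter (log2 difference -0.37, edgeR adjusted p = 0.45). The largest of these differences was that of Socs3 between DMDA-PatA and puromycin, a log2 value of -4.20 (SE 0.51, edgeR adjusted p = 1.63e-14), so that puromycin left 18.4 fold more. Without DMDA-PatA replicate 1 the calls of Id1 and Id3 against harringtonine and of Id1 against puromycin were lost, at log2 differences of -0.98, -0.98 and -0.81. The Id1 call against puromycin was also lost without puromycin replicate 1 (-1.15) or 2 (-1.14).

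Between harringtonine and puromycin, Socs3 (log2 difference -2.25), Spry2 (-1.53), Spry4 (-1.38) and Smad7 (-1.55) kept fewer footprints with harringtonine, and Lefty1 kept more (1.28, SE 0.45, edgeR adjusted p = 0.043). Of all transcripts tested 9.94% were lower and 1.20% higher in this comparison. These 5 calls were not stable to single libraries. Without puromycin replicate 2 none of them passed, although the log2 differences were still -1.85, -1.32, -1.58, -1.85 and 1.01. Leaving out either control library or puromycin replicate 1 left only the Socs3 call.

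A second scaling asked how each ORF changed beside the typical coding sequence, with library sizes set by TMM over coding sequences and without the spike-in. With this scaling the median of all coding sequences tested was -0.04 with puromycin, -0.12 with harringtonine and -0.11 with DMDA-PatA, and the 10 genes split by drug. With DMDA-PatA, Dusp6 (-0.96), Spry2 (-0.66) and Spry4 (-1.15) fell further than typical, while Id1 (2.01), Id2 (1.35), Id3 (2.33), Lefty1 (1.97) and Smad7 (0.71) were relatively higher, beside 23.5% lower and 18.6% higher among all. The Socs3 value of -0.70 did not pass (edgeR adjusted p = 0.0575), except without puromycin replicate 2 (-0.70), and neither did that of Tgif1 at -0.24. The Spry2 call was lost without either control or DMDA-PatA library (-0.77 to -0.57), and so was that of Smad7 (0.63 to 0.79), whose adjusted p in edgeR was 0.0494. The Dusp6 call was lost without DMDA-PatA replicate 2 (-0.93).

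With harringtonine, Id1 (log2 2.05), Id2 (2.08), Id3 (2.52), Lefty1 (2.34) and Tgif1 (0.46) were relatively higher, beside 26.3% higher and 29.9% lower among all, and none was lower in edgeR, in DESeq2 or at an unadjusted p under 0.05. The Tgif1 call was lost without either control library or harringtonine replicate 1 (0.39 to 0.47). Socs3, Dusp6, Spry2, Spry4 and Smad7 lay between -0.12 and 0.31 and did not pass. Beside coding sequences of up to 600 nt alone, Tgif1 was not higher. With spike-in scaling its harringtonine value of -2.38 lay below their median of -1.66. The spike-in values of Id1, Id2, Id3 and Lefty1 lay above the medians of their length classes. On the TMM scale all 10 genes were relatively higher with puromycin, from 0.58 in Lefty1 to 2.66 in Id3, beside 24.1% higher and 24.9% lower among all coding sequences. Socs3 stood at 1.74 (SE 0.20, edgeR adjusted p = 6.24e-07) and Spry2 at 1.44. These coding sequences are of all lengths. With spike-in scaling their puromycin medians were -1.29 up to 600 nt and -2.94 above 1200 nt. Tgif1, at -1.46 with spike-in scaling, lay below the median of its length class, and the other genes lay above theirs. The part of ORF length was not tested. By TMM scaling some of these calls rested on single libraries. Lefty1 was no longer called without control replicate 1 (0.41), without puromycin replicate 1 (0.31) or without either DMDA-PatA library (0.58), and Dusp6 was not called without puromycin replicate 1 (0.47).

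**Figure D2:**
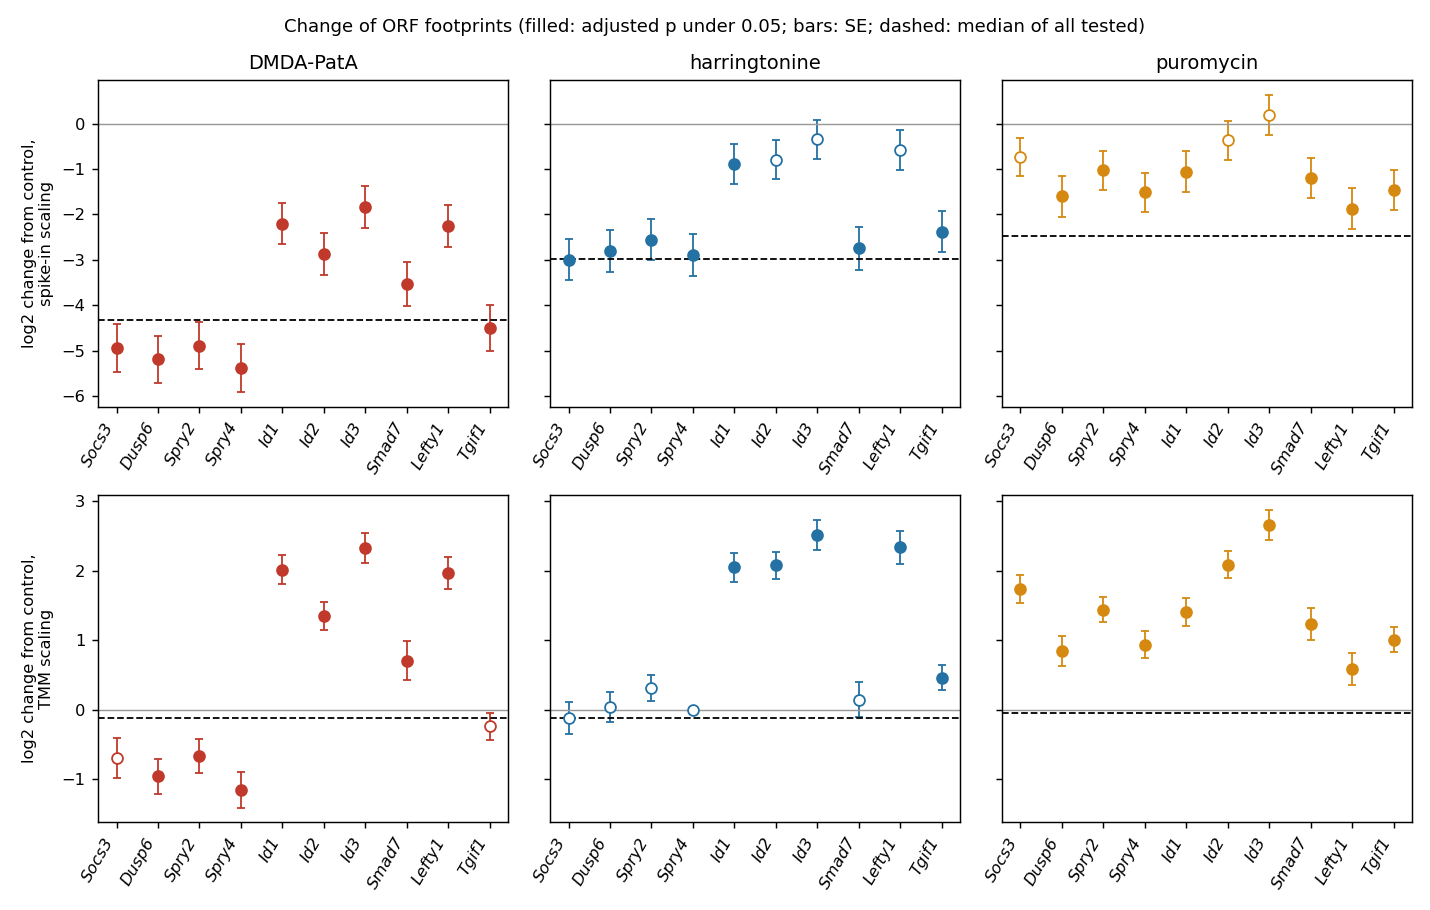
Log2 change of ORF footprints from control for each gene and drug with its SE, by spike-in scaling in the upper row and by TMM scaling in the lower row. Filled points passed the adjusted p of 0.05, open points did not, and the dashed line is the median over all features tested (-4.32, -2.97 and -2.48 in the upper row). With TMM scaling all 10 genes are above this line with puromycin. The line takes in ORFs of all lengths.

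Footprints on the 5' UTR changed in another way than those on the ORF. Socs3 5' UTR footprints were 121 and 104 in the control, 250.2 and 306 with puromycin, 338 and 258 with harringtonine, and 142 and 333 with DMDA-PatA, so that every drug library was above both controls. The rise passed with harringtonine (log2 change 1.40, SE 0.46, edgeR adjusted p = 0.008) and with DMDA-PatA (1.07, SE 0.45, edgeR adjusted p = 0.0421) and not with puromycin (1.30, edgeR adjusted p = 0.166). The DMDA-PatA call rested on its replicate 2, without which the log2 change was 0.33. It was also lost without either control (1.18 and 0.96) or either puromycin library (1.07) and without the filter on low counts (edgeR adjusted p = 0.0659). The harringtonine call was lost without either control (1.51 and 1.29) or harringtonine replicate 1 (1.19).

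Of the ERK inhibitors, Dusp6 had 5' UTR footprints of 492 and 329 in the control, 875 and 436 with puromycin, 722 and 539 with harringtonine, and 251 and 309 with DMDA-PatA. No Dusp6 change passed the test. Spry2 had 89.6 and 67.1 in the control, 209 and 129 with puromycin, 342 and 195 with harringtonine, and 32.8 and 32.5 with DMDA-PatA. The Spry2 5' UTR fell with DMDA-PatA (log2 change -1.26, SE 0.48, edgeR adjusted p = 0.0241) and rose with harringtonine (1.78, SE 0.47, edgeR adjusted p = 0.000897). Without either control (-1.04 and -1.45) or DMDA-PatA replicate 1 (-1.26) the fall did not pass, and the rise did not pass without control replicate 2 (1.58). Spry4 had 41.3 and 46.2 in the control and 150.2 and 100.1 with harringtonine, a rise of 1.51 (edgeR adjusted p = 0.00743) that was lost without either control (1.43 and 1.59) or harringtonine replicate 1 (1.19). With DMDA-PatA it had 24.6 and 38.1, below both controls, and the test was not passed.

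The Id3 5' UTR held 6 reads and 1 read in the control libraries and 386 and 314 reads in the DMDA-PatA libraries, which are 7.07 and 0.906 footprints against 244 and 255 after scaling. The harringtonine libraries held 11 and 5 reads and the puromycin libraries 7 and 7. This 5' UTR met the filter on low counts only through the DMDA-PatA libraries. In a fit without that filter its log2 change with DMDA-PatA was 6.04 (edgeR adjusted p = 6.61e-17). Since the control held 7 reads in all, the size of the change depends on them, and it was 7.93 without control replicate 1 and 5.12 without control replicate 2. The Id3 ORF fell in the same libraries.

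Id1 5' UTR footprints were 160.3 and 237 in the control, 490.1 and 298 with puromycin, 389 and 391 with harringtonine, and 382 and 762 with DMDA-PatA. All drug libraries lay above the controls. Only the change with DMDA-PatA passed (log2 1.52, SE 0.45, edgeR adjusted p = 0.00267), and it was lost without control replicate 1 (1.27) or DMDA-PatA replicate 2 (0.94). The Id2 5' UTR held between 0 and 17 reads in a footprint library, too few for the filter. Lefty1 held between 1 and 15 reads in a footprint library and no change passed, although its 5' UTR had 465 and 1153 reads in the transcriptome libraries. Its log2 change with DMDA-PatA was 0.65 (SE 0.76).

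Smad7 and Tgif1 lost 5' UTR footprints with DMDA-PatA. Smad7 had 597 and 538 in the control, 902 and 519.8 with puromycin, 454 and 333 with harringtonine, and 74.5 and 103 with DMDA-PatA. Tgif1 had 560.0 and 356 in the control, 575 and 429 with puromycin, 375 and 178 with harringtonine, and 21.5 and 30.0 with DMDA-PatA. The log2 changes with DMDA-PatA were -2.68 for Smad7 (SE 0.47, edgeR adjusted p = 2.32e-07) and -4.15 for Tgif1 (SE 0.51, edgeR adjusted p = 8.58e-14). No other change of these 5' UTRs passed, and their harringtonine values were -0.53 and -0.73.

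**Figure D3:**
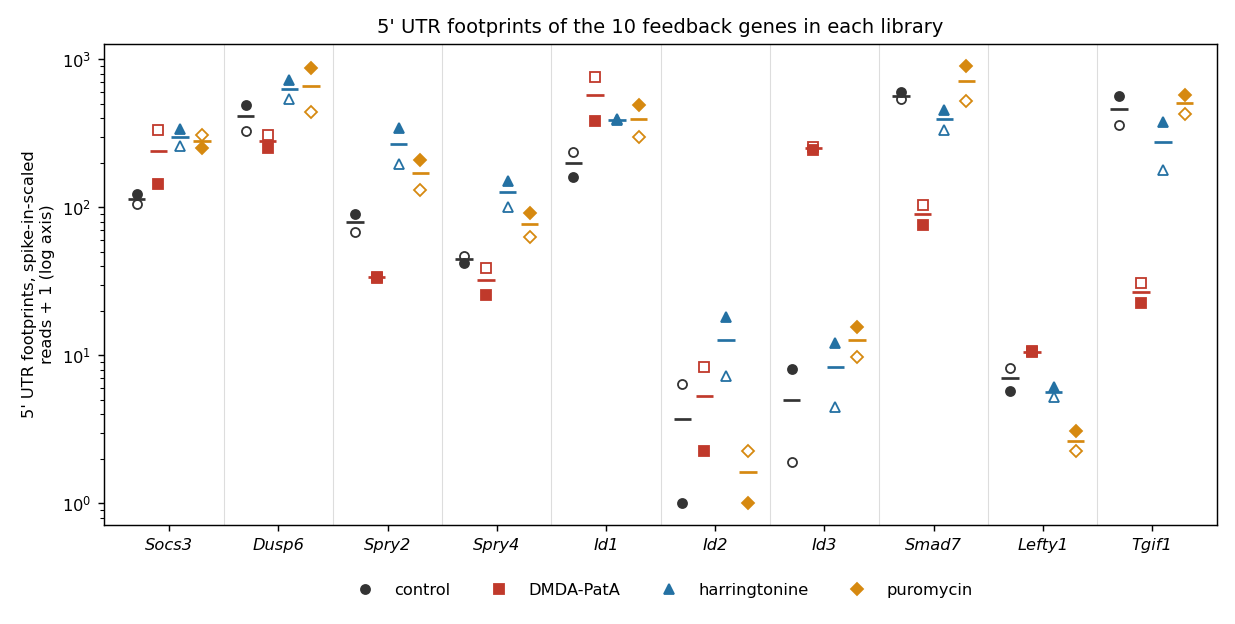
5' UTR footprints of each gene in each footprint library, in spike-in-scaled reads plus 1 on a log axis, with replicate 1 filled, replicate 2 open and the mean as a bar. Id3 held fewer than 15 footprints in all libraries but those with DMDA-PatA, which held 244 and 255, while Tgif1 and Smad7 are lowest with DMDA-PatA.

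Among the 9 5' UTRs tested, 3 were called higher and 3 lower with DMDA-PatA, beside 14.7% and 29.0% of all 5' UTRs tested. Id3 and Lefty1 were tested only because of their reads in the DMDA-PatA libraries, and among the other 7 genes 2 were called higher and 3 lower. With harringtonine 3 rose and 0 fell in edgeR, beside 35.1% and 5.21%, and the number that fell was also 0 in DESeq2, in limma and at an unadjusted p under 0.05. With puromycin no 5' UTR of the 9 passed in edgeR, DESeq2 or limma, beside 0.557% higher and 0.406% lower among all. At an unadjusted p under 0.05 in edgeR, 4 were higher with puromycin, namely Socs3, Spry2, Id1 and Id3, and none was lower. The medians over all 5' UTRs tested were 0.07 with puromycin, 0.88 with harringtonine and -0.48 with DMDA-PatA.

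Since both regions of a transcript are counted in the same library, the change of the 5' UTR minus that of the ORF does not depend on the spike-in. This difference passed the test as above 0 for 7 of 9 genes with each drug, beside, of all transcripts tested, 78.3% with puromycin, 95.4% with harringtonine and 93.6% with DMDA-PatA. With DMDA-PatA it was 5.91 for Socs3, 4.89 for Spry4, 4.68 for Dusp6, 3.71 for Id1 and 3.67 for Spry2. It was 8.03 for Id3 and 2.94 for Lefty1, which are tested only because of their reads in these libraries, and without these genes 5 of 7 passed with DMDA-PatA and 7 of 7 with each other drug. Smad7 at 0.85 (SE 0.42, edgeR adjusted p = 0.0619) and Tgif1 at 0.37 (SE 0.45, edgeR adjusted p = 0.427) did not pass, and the median over all was 4.36. Smad7 passed without harringtonine replicate 1 or 2, at 0.85 in both. With harringtonine and puromycin the genes that did not pass were Id3 (1.26 and 1.35) and Lefty1 (0.20 and 0.06). Without control replicate 1, which held most of the Id3 reads there, Id3 passed with both (3.07 and 3.16).

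The share of reads on the 5' UTR, out of 5' UTR and ORF reads, shows the same on a plain scale. Pooled over all coding transcripts it was 4.01% and 4.27% in the control libraries and 20.4% and 17.7% with puromycin. It was 29.1% and 32.8% with harringtonine and 38.2% and 38.6% with DMDA-PatA, so a rise as such does not set these genes apart. For Socs3 the control had 21.9% ± 0.365 (SD, n = 2), puromycin 54.4% ± 5.00, harringtonine 85.7% ± 1.90 and DMDA-PatA 94.3% ± 1.84. For Id3 it was 0.339% ± 0.361 in the control and 46.4% ± 14.6 with DMDA-PatA, and at most 1.21% in each library with the other drugs. Lefty1 reached at most 2.88% in a footprint library, although 20.8% ± 0.136 of its transcriptome reads lay on the 5' UTR. Smad7 had 74.2% ± 0.445 of its footprints on the 5' UTR in the control, against 40.7% ± 3.88 of its transcriptome reads. For Tgif1 the share was 26.6% ± 5.45 in the control and 31.8% ± 3.10 with DMDA-PatA, below the 53.2% ± 1.54 of harringtonine and the 52.3% ± 4.05 of puromycin.

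**Figure D4:**
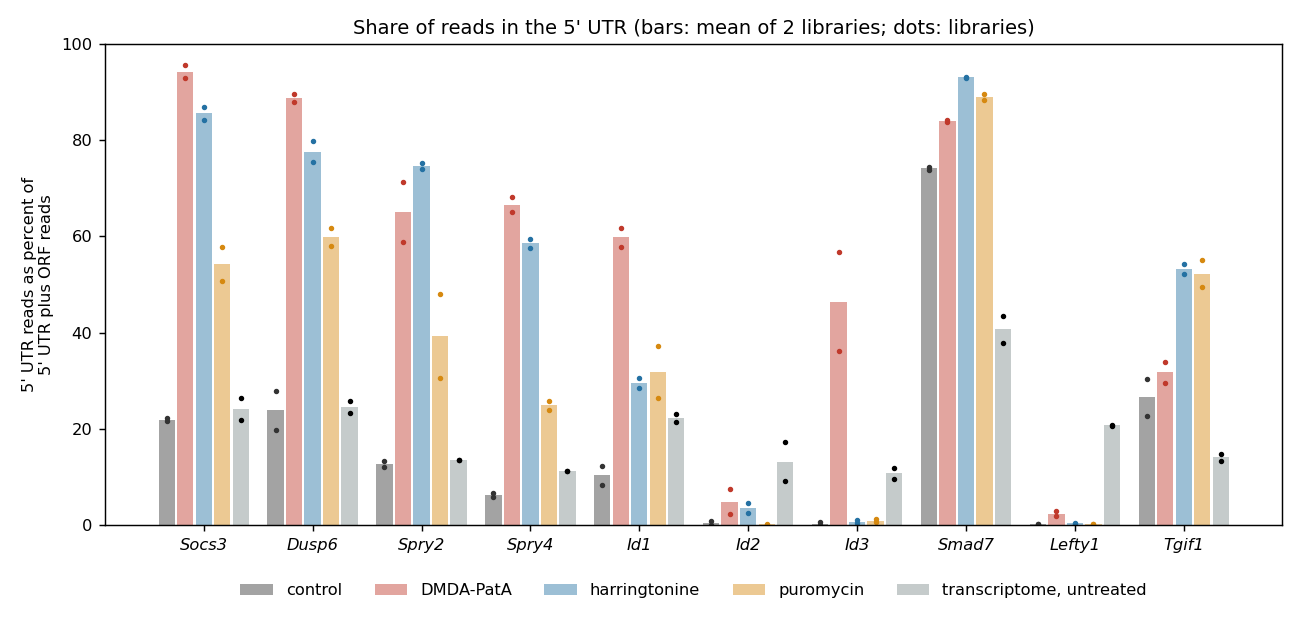
Reads on the 5' UTR as a percent of 5' UTR and ORF reads for each gene, with bars for the mean of 2 libraries and dots for the libraries. Socs3 goes from 21.9% in the control to 94.3% with DMDA-PatA, Id3 from 0.339% to 46.4%, and Smad7 is at 74.2% already in the control.

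In untreated cells, footprints were set against transcriptome reads of the same ORF. For the log2 ratio, both were scaled to the total on coding sequences. Levels and values printed here keep the authors' scaling, which differs between footprints and transcriptome, so the ratios cannot be read from them. Per kb of ORF, transcriptome levels ran from 849 in Id2 to 4524 in Tgif1, and control footprint levels from 155 in Smad7 to 3889 in Id1. Transcriptome values were 1168 and 1004 for the Id1 ORF against 1781 and 1672 footprints, and 2176 and 1997 for the Smad7 ORF against 211 and 184. The log2 ratio of footprints to transcriptome reads was 1.98 for Id1, 1.95 for Id2 and 1.72 for Id3 (SE 0.11 to 0.14), where 289, 307 and 458 of 13717 coding sequences had a higher one. It was 0.79 for Lefty1, 0.69 for Dusp6, 0.64 for Socs3, 0.52 for Tgif1 and 0.52 for Spry4, and below 0 for Spry2 (-1.10, SE 0.11) and Smad7 (-2.09, SE 0.12, edgeR adjusted p = 1.84e-09). All 10 passed the test, 8 as higher and 2 as lower, beside 29.9% and 41.2% of all coding sequences. The 2 Sprouty genes differed in the sign of this ratio. In the authors' scaling, transcriptome values were 2848 and 2764 for Spry2 against 1171 and 1094 for Spry4. Control footprints were 579 and 486 against 668 and 638.

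**Figure D5:**
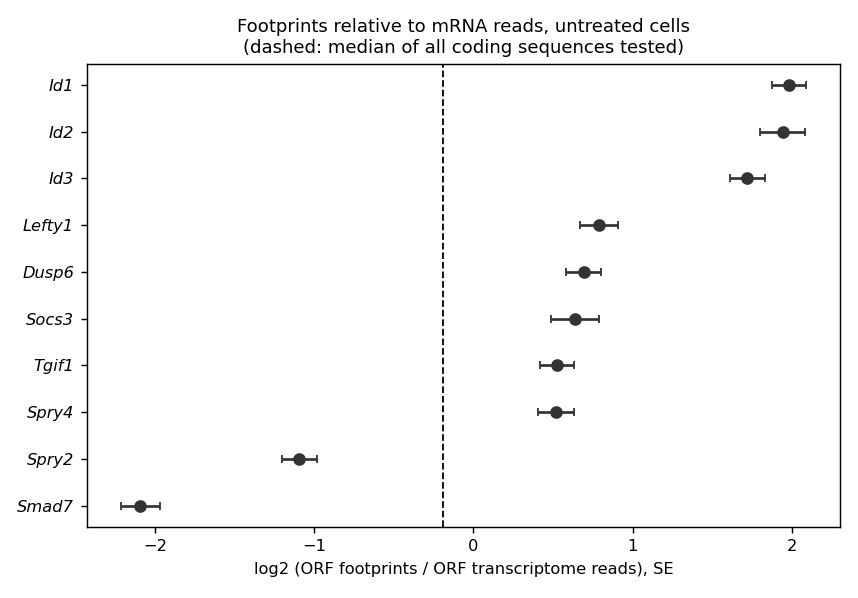
Log2 ratio of ORF footprints to ORF transcriptome reads in untreated cells for the 10 genes, with SE, and the median over all 13717 coding sequences tested (-0.19) as a dashed line. Id1, Id2 and Id3 are at 1.72 to 1.98, and Spry2 and Smad7 lie below 0.

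The other genes of these pathways were counted from lists. With DMDA-PatA the ORF footprints fell in 19 of 19 genes tested of the LIF-JAK-STAT3 list, 26 of 26 of FGF-ERK, 17 of 17 of BMP-SMAD1/5 and 13 of 13 of Nodal-SMAD2/3, with median log2 changes of -5.03, -4.75, -4.66 and -4.39, beside 99.3% of all transcripts tested and their median of -4.32. Harringtonine lowered 19, 24, 17 and 12 of them and puromycin 16, 24, 14 and 11, with none higher in edgeR, beside 92.9% and 90.1% of all, so the lists lay near the share of all transcripts. The lowest with DMDA-PatA in the FGF-ERK, BMP-SMAD1/5 and Nodal-SMAD2/3 lists were the receptor Fgfr2 (-8.02, SE 1.07), the type II receptor Bmpr2 (-6.08, SE 0.56) and the corepressor Skil (-5.97, SE 0.54). The Fgfr2 value is the least precise of these, and on the TMM scale it did not pass (-6.36, SE 2.58). The highest of the 4 lists were the ligand Lif (-2.17), the immediate early gene Ier2 (-2.06), the type II receptor Acvr2b (-2.36) and Foxh1 (-2.31), the DNA-binding partner of SMAD2.

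With harringtonine the lowest were Il6st (-4.95), which encodes the LIF receptor subunit gp130, the FGF receptor adaptor Frs2 (-5.13), the ligand Bmp2 (-4.70) and Skil (-4.80). The highest were Lif (-1.28), Ier3 (-0.31, not passing), Smad1 (-1.97) and Tgif2 (0.64, not passing), a relative of Tgif1. With puromycin the lowest were the kinase Jak1 (-3.85), Fgfr2 (-5.10, SE 0.95), the ubiquitin ligase Smurf2 (-4.42) and Ski (-4.71). The highest were the AP-1 gene Junb (0.29), Ier2 (0.24), Acvr2b (-0.77) and Tgif2 (0.66), of which none passed.

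On the TMM scale puromycin left 6 of 19, 10 of 26, 6 of 17 and 3 of 13 genes of these lists higher and 4, 3, 3 and 3 lower, beside 24.1% and 24.9% of all coding sequences. In an immediate early list (Fos, Jun, Egr and related genes), set beside them for comparison, 9 of 9 were higher with puromycin (Junb is in this list and in that of LIF), with a median of 2.08 on the TMM scale, where that of the 10 feedback genes was 1.32 and that of all coding sequences -0.04. For the 5' UTR with DMDA-PatA, 3 of 15 genes tested of the LIF-JAK-STAT3 list, 10 of 23 of FGF-ERK, 14 of 14 of BMP-SMAD1/5 and 3 of 8 of Nodal-SMAD2/3 were lower, beside 29.0% of all 5' UTRs tested, and 0, 3, 0 and 0 were higher in edgeR, beside 14.7%. The median log2 changes were -0.31, -1.28, -2.11 and -0.78, beside -0.48 over all. In untreated cells 7 of 20, 13 of 26, 14 of 18 and 5 of 13 genes of these lists had a low footprint to transcriptome ratio, beside 41.2% of all coding sequences, and 9, 11, 1 and 5 had a high one, beside 29.9%. The lists were not tested against each other.

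The coding sequence nearest to each gene in its 3 log2 changes was found among 9942 with at least 100 control reads. These were Kctd11 for Socs3, Naa80 for Dusp6, Med20 for Spry2, Zfp90 for Spry4, Borcs8 for Id1, Higd2a for Id2, Hist1h2bb for Id3, B3galnt2 for Smad7, Ikbip for Lefty1 and Msantd4 for Tgif1. Euclidean distances over the 3 drugs ran from 0.0655 log2 units for Tgif1 to 0.251 for Lefty1. None of the 10 was nearest to another of them. With only the nearest of 9942 kept for each gene, that does not tell whether their profiles are alike.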

How the data were processed

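The authors aligned SOLiD reads to mm10 (GRCm38) with LifeScope, dropped reads with several matches, shifted footprints of 26 to 36 nt to the P-site and counted them per region on 1 transcript per gene. The labels name Picard 1.38. The deposited values are normalized signal, namely reads divided by DESeq2 size factors, from spike-in RNA for footprints and between replicates for the transcriptome. Divided by what 1 read is worth in a library, 100% of values came out whole within 0.02, so the reads could be recovered. Tests were planned for these reads and used edgeR 4.0.16 in R 4.3.3 (quasi-likelihood, library sizes from the spike-in factors, 4 conditions in 1 fit, at least 10 reads in 2 libraries, Benjamini-Hochberg threshold 0.05). An SE is the log2 change divided by the root of F. limma 3.58.1 and DESeq2 1.42.0 were alternatives. Figures and tables used Python 3.11.15 with pandas 2.3.3, numpy 2.4.6 and matplotlib 3.10.9. Simulated counts were run through the ORF fit with TMM scaling, the fit of 5' UTR minus ORF change and the fit of footprints against transcriptome reads. The fits with spike-in scaling, where nearly all ORFs fall, were not tested in this way. With 2 libraries a group, replicate spread limits the precision, and read numbers cover counting error only. The read totals on coding transcripts include 3' UTR reads. Otherwise the columns of the 3' UTR were used only in the closing section. The members and lists were chosen with earlier results of these data known. Named genes are the 10 members, the lowest and highest ORF change of each pathway list per drug, and the nearest profile of each member. One gene that this rule names is not reported here.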

Additional observations from a re-analysis of the deposited data

Results flagged for a closer look

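Values on the 3' UTR enter no comparison above. Cases were picked where both libraries of a drug held at least 10 reads there and lay above both control libraries. These came from 4 of the genes. Because only higher cases were picked, they do not show how common a rise is, and the share over all 3' UTRs was not counted. With as many reads, Id3 with DMDA-PatA lay below both controls. Id3 with harringtonine and Spry4 with DMDA-PatA overlapped with the controls. Genes with fewer 3' UTR reads, such as Spry2 and Id2, are not described. For Id3 the mean 3' UTR value with puromycin was 133.531 (130.3 and 137), against 41.3 and 39.0 in the control. The Socs3 3' UTR had 28.3632 with puromycin (26.9 and 29.8), against 7.07 and 4.53. With harringtonine the Spry4 3' UTR had 35.0778 (45.7 and 24.5), against 10.6 and 7.25, and the Smad7 3' UTR had 12.8592 (15.2 and 10.5), against 8.25 and 4.53. These differences were not tested.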

How the results depend on the processing

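With TMM in place of the spike-in scaling, nearly all levels shifted, and the median of all ORFs moved to between -0.10 and -0.03, so signs turned by construction. Under it 3 ORFs were lower and 4 higher with DMDA-PatA, 0 and 5 with harringtonine, and 0 and 10 with puromycin. With Smad7 tested beside noncoding transcripts too, its adjusted p in edgeR was 0.0501, hence 4 and not 5. Between drugs, 5 ORFs were lower with DMDA-PatA than with harringtonine, 2 higher with DMDA-PatA than with puromycin and 2 higher with harringtonine than with puromycin. Of the 5' UTRs 0 were lower and 8 higher with DMDA-PatA, and 9 were higher with harringtonine and 8 with puromycin. The log2 changes whose sign turned were, with DMDA-PatA, 1.97 for the Lefty1 ORF, 1.35 for Id2, 0.71 for Smad7, 2.01 for Id1 and 2.33 for Id3. With harringtonine they were 2.34 for Lefty1, 0.044 for Dusp6, 2.08 for Id2, 0.31 for Spry2, 0.46 for Tgif1, 0.15 for Smad7, 2.05 for Id1 and 2.52 for Id3. With puromycin they were 0.58 for Lefty1, 0.85 for Dusp6, 1.74 for Socs3, 2.09 for Id2, 1.44 for Spry2, 1.01 for Tgif1, 0.94 for Spry4, 1.24 for Smad7 and 1.41 for Id1. DMDA-PatA against puromycin turned to 1.39 for Lefty1 and 0.61 for Id1. The 5' UTR changes turned to 3.72 for Dusp6, 3.03 for Spry2, 0.10 for Tgif1, 3.73 for Spry4 and 1.57 for Smad7 with DMDA-PatA, and to 2.43 for Lefty1, 2.11 for Tgif1 and 2.38 for Smad7 with harringtonine.

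The labels do not say whether the replicate numbers pair the libraries, and the main fits used no pairing. Deviations of same-numbered libraries correlated at -0.0241 to 0.159, which cannot settle the question. The highest value was that of harringtonine with DMDA-PatA. With the replicate number as a block, 0 genes were higher with harringtonine than with puromycin, as also without the filter on low counts, and the cause was not tested. The block also ended the calls of the Id1 ORF with harringtonine (log2 change -0.89), of Spry4 between harringtonine and puromycin (-1.38), of the Socs3 (1.02) and Spry2 (-1.24) 5' UTRs with DMDA-PatA, and of Smad7 with DMDA-PatA on the TMM scale (0.71).

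With the spike-in factors of these 2 drugs, DMDA-PatA and harringtonine, swapped, an assignment that could not be settled, 8 ORFs were lower with harringtonine than with puromycin, 1 5' UTR was lower with harringtonine and 1 higher with puromycin. The Id2 (-1.05), Id3 (-0.63) and Lefty1 (-0.78) ORFs then passed with harringtonine. The Socs3 ORF (-0.73) and 5' UTR (1.31) then passed with puromycin, the Tgif1 5' UTR (-1.05) with harringtonine, and the Dusp6 (-1.48), Id2 (-0.69), Tgif1 (-1.23) and Id3 (-0.82) ORFs between harringtonine and puromycin.

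DESeq2 also called the Id2 ORF with harringtonine (adjusted p = 0.0374) and Dusp6 between harringtonine and puromycin (0.0331). It did not call, on the TMM scale, Spry2 (0.0679) and Smad7 (0.103) with DMDA-PatA or Lefty1 with puromycin (0.0677). limma with a pseudocount of 1 did not call the Id1 ORF with harringtonine (adjusted p = 0.0556) or the Socs3 5' UTR with DMDA-PatA (0.0647), and called the 5' UTR to ORF difference of Smad7 with DMDA-PatA (0.0416) and of Id3 with puromycin (0.0372). The cause was not tested.

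Leaving out 1 library at a time, where the lone library was assumed to vary like the other groups, gave 3 to 8 ORFs lower with puromycin. Between harringtonine and puromycin 0 to 6 were lower and 0 to 1 higher. Of the 5' UTRs 1 to 3 were higher with DMDA-PatA, and 0 to 4 higher and 0 to 1 lower with harringtonine. On the TMM scale 1 to 4 were lower with DMDA-PatA. Without harringtonine replicate 1 the Id2 ORF (-1.09) and the Tgif1 5' UTR (-1.36) also passed with harringtonine, and without its replicate 2 Smad7 passed between DMDA-PatA and harringtonine (-1.03). The counts of footprints against transcriptome reads were 8 and 2 throughout. Low reads on the Id2, Id3 and Lefty1 5' UTRs limit what could be seen there.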
